A study of Mus musculus with 20 samples.

Results

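The regions described here are 1380 sites of open chromatin in mouse thymocytes that lay in H3K4me1 chromatin, away from H3K4me3, and had no RNA polymerase II (Pol II) peak. They were taken from a list of 11176 FAIRE peaks, FAIRE being an assay that isolates open chromatin without an antibody, and made up 12.3% of it. Each overlapped an H3K4me1 peak by at least 1 bp, lay over 1000 bp from any H3K4me3 peak, and had no peak of total Pol II or of Pol II phosphorylated on serine 5 (Ser5P) within 500 bp. Another 215 FAIRE peaks met the same conditions on both histone marks but had such a Pol II peak, and they are the set compared with here. The members were thus chosen by their values in 5 of the lists (FAIRE, H3K4me1, H3K4me3, total Pol II and Ser5P), so nothing about those lists that the choice fixes is a finding. Everything below concerns these 1595 distal H3K4me1 FAIRE peaks unless another set is named.

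The cells were CD4+/CD8+ thymocytes of wild-type C57BL/6 mice aged 5 to 6 weeks, isolated by magnetic sorting for CD8 and then CD4. Of 20 samples, 16 had a list of peaks and 4 (total RNA, poly(A) RNA, input and a rabbit immunoglobulin control) were not analysed here. The series has no treatment or genotype contrast, so the groups are kinds of genomic region in 1 cell type. The cell type label was not checked against marker genes, because no annotation of the files' genome build (mm9) was used here.

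Enhancers are stretches of DNA that raise transcription of a gene from a distance, and those in use are commonly open, bound by transcription factors and flanked by nucleosomes with H3K4me1, whereas H3K4me3 marks active start sites. CBP is a histone acetyltransferase and coactivator found at many enhancers, and ETS1 is a DNA-binding factor of the ETS family with a known part in T-cell development. Pol II itself is found at some enhancers, where it can make short non-coding transcripts. At a start site it assembles with general transcription factors. TBP binds core promoter DNA, Taf1 belongs with TBP to TFIID, TFIIA stabilises TBP on DNA, TFIIB links TBP to Pol II, TFIIF accompanies the polymerase, and TFIIE recruits TFIIH, which opens the DNA.

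Each target had a single deposited list, from merged replicates for 13 targets and 1 replicate for CBP, Taf1 and TFIIB, so no difference below could be set against a spread between replicates and no p-value is given. Shares carry Wilson 95% intervals, and differences of shares carry Newcombe 95% intervals and were called where the interval excluded 0. Medians carry order-statistic 95% intervals and were called different where these did not overlap. Such intervals cover counting error in these lists only, and treat neighbouring peaks as independent, which they may not be. They were not adjusted over the 14 shares compared between regions without and with Pol II. Nor were they adjusted over the further comparisons below, of pairs of factors, distances, runs and other kinds of FAIRE peak. Read depth was unknown, and a region with no peak is one below the authors' threshold, not one shown to lack the protein.

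Among the 1595 distal H3K4me1 FAIRE peaks, 86.5% had no Pol II and 13.5% did. Of the 215 with Pol II, 199 had total Pol II within 500 bp, 80 had Ser5P and 64 had both, and 157 were overlapped by one or the other. The distance of 500 bp fell in a gap of the data. Outside chromosome 18, the members nearest to it were chr10:117520251-117520340, at 550 bp from Pol II, and chr17:5098881-5098920, at 660 bp. The nearest regions counted as having Pol II without overlapping it were chr10:83574381-83574440, at 300 bp, and chr7:133373991-133374150, at 280 bp. Of the 14 members between 500 and 1000 bp from Pol II, 1 overlapped TBP, against 28 of the 58 regions that had Pol II within 500 bp without overlapping it. At the H3K4me3 limit, chr19:47524711-47524840 and chr4:134051191-134051470 were members at 1010 bp, and chr12:17733391-17733540 and chr4:129286011-129286130 were left out at 990 bp.

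Regions without Pol II rarely carried TBP. TBP overlapped 130 of the 1380, or 9.42%, against 150 of the 215 with Pol II, or 69.8%, while the share over all FAIRE peaks was 34.0%. The difference was -60.3 percentage points (95% interval -66.3 to -53.7), which made TBP 0.135 times as frequent without Pol II (0.112 to 0.163). It was lower without Pol II on all 19 autosomes. TBP was still more frequent at the members than at the 3535 FAIRE peaks outside both histone marks, where it reached 0.792%. At the 5132 FAIRE peaks that overlapped H3K4me3, TBP reached 61.4%.

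TFIIB and TFIIE, the 2 other general factors with sizeable overlap, had the same order. TFIIB was found at 10.9% of the regions without Pol II and at 48.8% of those with it (105 regions), with 27.8% over all FAIRE peaks. That difference was -37.9 points (-44.7 to -31.1). TFIIE was found at 120 regions without Pol II, or 8.70%, and at 108 with it, or 50.2%, with 24.7% over all FAIRE peaks. Its difference was -41.5 points (-48.3 to -34.7), and both factors were lower without Pol II on each of the 19 autosomes. Among the members TFIIB was thus seen about as often as TBP, their Wilson intervals being 9.40% to 12.7% for TFIIB and 7.99% to 11.1% for TBP.

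The remaining general factors were scarce in both sets, and were not frequent at FAIRE peaks in H3K4me3 either. There TFIIH reached 8.73%, TFIIA 7.99%, TFIIF 3.72% and Taf1 3.62%. TFIIH overlapped 17 regions without Pol II (1.23%) and 16 with it (7.44%), against 4.74% over all FAIRE peaks, a difference of -6.21 points (-10.5 to -3.31). TFIIA overlapped 6 without Pol II (0.435%) and 15 with it (6.98%), against 4.26% over all, a difference of -6.54 points (-10.8 to -3.79). TFIIF overlapped 13 without Pol II (0.942%) and 7 with it (3.26%), against 2.10% over all. Taf1 overlapped 3 without Pol II (0.217%) and 5 with it (2.33%), against 2.17% over all. The TFIIF difference was -2.31 points (-5.65 to -0.517) and the Taf1 difference -2.11 points (-5.11 to -0.715). Both calls were lost when FAIRE peaks were limited to the upper 50% by area, at -0.679 points for TFIIF and -1.59 points for Taf1. The Taf1 call was also lost where only overlapping Pol II counted, at -0.857 points, and the TFIIF call for FAIRE peaks wholly in H3K4me1, at -1.41 points. Unlike TBP, Taf1 was less frequent at the members than at FAIRE peaks outside both marks (1.10%), a difference of -0.886 points (-1.31 to -0.373). TFIIH (0.396% outside both marks) and TFIIF (0.0566%) were more frequent at the members, and TFIIA (0.255%) was not called different. At least 1 of the 6 general factors other than TBP was present at 237 regions without Pol II, or 17.2%, and at 140 with it, or 65.1%, against 36.3% over all FAIRE peaks. That difference was -47.9 points (-54.3 to -41.0).

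CBP and ETS1 were also less frequent without Pol II, and ETS1 had the smallest relative gap of the 5 most frequent lists. CBP overlapped 11.2% of the regions without Pol II and 34.9% of those with it (75 regions), against 11.5% over all FAIRE peaks. The difference of -23.7 points (-30.4 to -17.3) made CBP 0.322 times as frequent without Pol II (0.254 to 0.407). ETS1 overlapped 184 regions without Pol II, or 13.3%, and 51 with it, or 23.7%, against 10.0% over all FAIRE peaks. Its difference was -10.4 points (-16.7 to -4.86), and ETS1 was 0.562 times as frequent without Pol II (0.427 to 0.740). The intervals of the TBP, CBP and ETS1 ratios did not overlap, although the same regions enter all 3, while that of CBP overlapped that of TFIIB (0.183 to 0.275). CBP was lower without Pol II on 17 of 19 autosomes and ETS1 on 15. ETS1 was the most frequent of the 9 factors among the members, although its list of 2359 peaks was among the shortest. Its Wilson interval, 11.6% to 15.2%, overlapped that of CBP, 9.67% to 13.0%.

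Set against FAIRE peaks in H3K4me3, the members differed in the same direction for CBP, at 11.2% of members and 16.9% of the H3K4me3 sites, with a difference of -5.70 points (-7.58 to -3.66). For ETS1 the shares were 13.3% at the members and 14.9% at the H3K4me3 sites, and the interval of the difference, -3.52 to 0.566 points, included 0. Both proteins were more frequent at the members than at FAIRE peaks outside both marks, where CBP reached 1.16% and ETS1 0.736%. Marks of elongation were rare at the members, as they were over all FAIRE peaks. Ser2P, the Pol II form of elongating polymerase, overlapped 4 regions without Pol II (0.290%) and 3 with it (1.40%), against 0.644% over all FAIRE peaks, a difference of -1.11 points (-3.74 to -0.0803) whose call was lost in the upper 50% of FAIRE peaks. H3K36me3, which is laid down over transcribed gene bodies, overlapped 13 without Pol II (0.942%) and 5 with it (2.33%), against 1.55% over all. That difference of -1.38 points (-4.41 to 0.101) was not called. Compared with FAIRE peaks in H3K4me3 (0.448%), H3K36me3 was more frequent at the members, by 0.494 points (0.0438 to 1.17). Compared with FAIRE peaks outside both marks (3.56%), it was less frequent at the members, a difference of -2.62 points (-3.39 to -1.75).

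**Figure D1:**
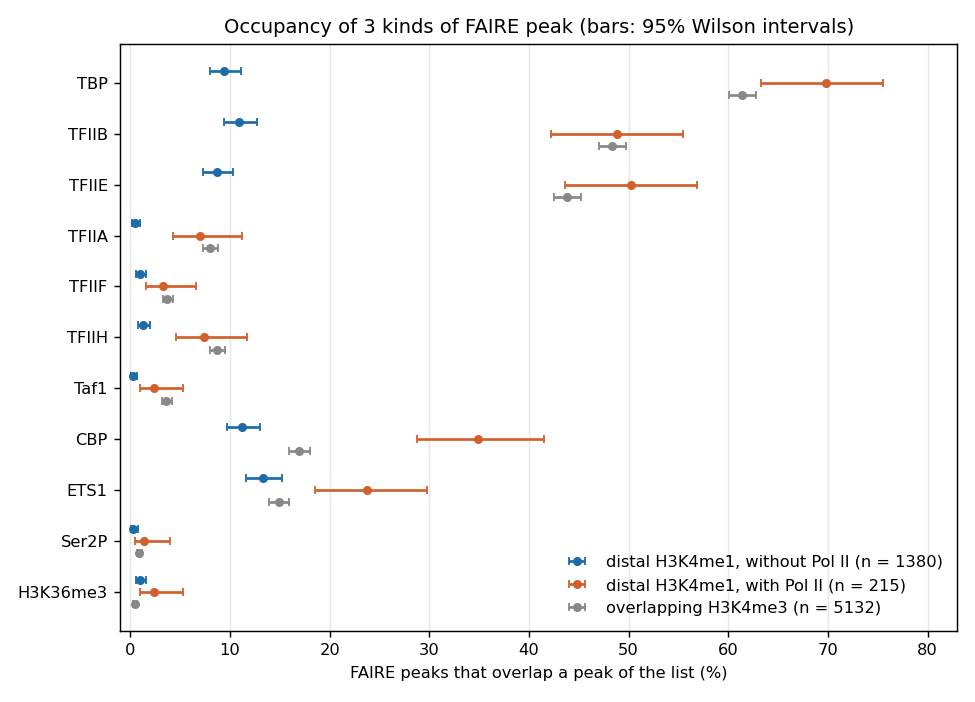
Share of distal H3K4me1 FAIRE peaks, in percent, that overlapped a peak of each list, in the 1380 without Pol II and the 215 with it, and of the 5132 FAIRE peaks that overlapped H3K4me3, with 95% Wilson intervals as bars. Without Pol II, TBP stands at 9.42%, CBP at 11.2% and ETS1 at 13.3%, and with Pol II at 69.8%, 34.9% and 23.7%, so the gap is narrower for CBP and ETS1 than for TBP.

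The sizes of these differences depended on how many peaks each list held. With each of the 9 factor lists limited to its 1262 peaks of highest area, the length of the shortest, TBP reached 0.217% without Pol II and 3.72% with it, TFIIB 0.145% without and 5.12% with it, and TFIIE 0.290% without and 7.91% with it. CBP then reached 6.01% without Pol II and 16.7% with it, and ETS1 7.75% without and 14.4% with it. The directions held and all these differences were called, but at equal length CBP and ETS1, not the general factors, were the commonest proteins in both sets. With each list limited to its upper 50% by area, TBP reached 3.84% without Pol II and 48.8% with it, and TFIIE 3.70% without and 29.3% with it. ETS1 then reached 7.39% without and 14.0% with it, and CBP 9.06% without and 26.0% with it. At this setting CBP, not ETS1, was the most frequent of the 9 factors among the members.

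Most regions without Pol II carried no listed factor at all. Of the 1380, 910 (65.9%) overlapped none of the 9 lists, against 27 of the 215 with Pol II (12.6%) and 51.7% of all FAIRE peaks. That difference was 53.4 points (47.7 to 57.9). Another 292 members (21.2%) overlapped 1 list only, and 84 (6.09%) overlapped 3 or more, against 97 of the regions with Pol II (45.1%). The mean was 0.564 lists without Pol II and 2.47 with it. At least 3 of the 6 general factors met at 9 members (0.652%) and at 24 regions with Pol II (11.2%). No member overlapped more than 6 of the 9 lists. Apart from regions with none, shares over all FAIRE peaks were not computed for these numbers of lists. They are thus set only against regions chosen for having Pol II.

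Where a factor was present without Pol II, it was alone more often than where Pol II was present. Each list was also less frequent without Pol II, which by itself makes a lone factor more likely. The shares below are therefore not separate from the lower occupancy given above, and none was computed over all FAIRE peaks. Over the 5 frequent lists (TBP, TFIIB, TFIIE, CBP and ETS1), 86 members carried ETS1 only, 66 CBP only, 57 TBP only, 45 TFIIB only and 40 TFIIE only, and 5 carried all 5. Of the members with TBP, 43.8% had none of the other 4, against 18% of the regions with TBP and Pol II, a difference of 25.8 points (15.1 to 35.9). Of the members with ETS1, 46.7% had none of the other 4, against 7.84% with Pol II. Of the members with CBP, 42.6% did, against 10.7% with Pol II.

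Each of the 5 frequent factors was nonetheless more common at members that carried another of them than at members that did not. CBP was present at 50 of 184 members with ETS1 (27.2%) and at 8.78% of those without it, a difference of 18.4 points (12.2 to 25.4). TFIIB was present at 41 of 130 members with TBP (31.5%) and at 8.80% of those without TBP, a difference of 22.7 points (15.2 to 31.3). TBP was present at 30 members with CBP (19.4% of them) and at 8.16% of those without CBP, a difference of 11.2 points (5.49 to 18.3). TFIIB was also present at 34.2% of members with CBP and 32.1% of those with ETS1. In all 10 pairs of these factors the difference was above 0 and its interval excluded 0. Standardised to FAIRE area quintiles, the CBP difference fell to 10.1 points (5.92 to 17.4) and the TBP difference to 4.33 points (0.504 to 13.2), while that of TFIIB with TBP was 17.8 points (11.9 to 27.2), and all 3 stayed called. With lists of equal length the TBP difference was 1.05 points and not called. Only 3 members then carried TBP, and none of them carried TFIIB, a difference of -0.145 points. At regions with Pol II and full lists, TFIIB was also more common with TBP than without it, by 39.1 points (25.2 to 50.3). There the difference of CBP with ETS1 was 13.4 points (-1.46 to 28.4) and that of TBP with CBP 7.52 points (-5.54 to 19.3), neither called. Pairs were not computed over all FAIRE peaks.

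Among regions that carried another of the 5 frequent factors, TBP, TFIIB and TFIIE were each less frequent without Pol II, and ETS1 was not called different. TBP was present at 17.9% of regions with ETS1 without Pol II and at 82.4% of those with it, a difference of -64.4 points (-73.8 to -50.4), close to its difference over all regions. For regions with CBP the TBP difference was -55.3 points (-65.4 to -42.4). TFIIB was present at 31.5% of regions with TBP without Pol II and at 60.7% of those with it, a difference of -29.1 points (-39.6 to -17.5). CBP was called lower without Pol II among regions with ETS1, at 27.2% without Pol II and 45.1% with it (-17.9 points, -32.7 to -3.38), with TBP and with TFIIE. Among regions with TFIIB the CBP difference was -10.6 points (-22.5 to 1.52) and was not called. ETS1 was present at 25.4% of regions with TBP without Pol II and at 28.0% of those with it, a difference of -2.62 points (-12.8 to 7.82). Among regions with CBP it was present at 32.3% without Pol II and at 30.7% with it, a difference of 1.59 points (-11.5 to 13.7).

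**Figure D2:**
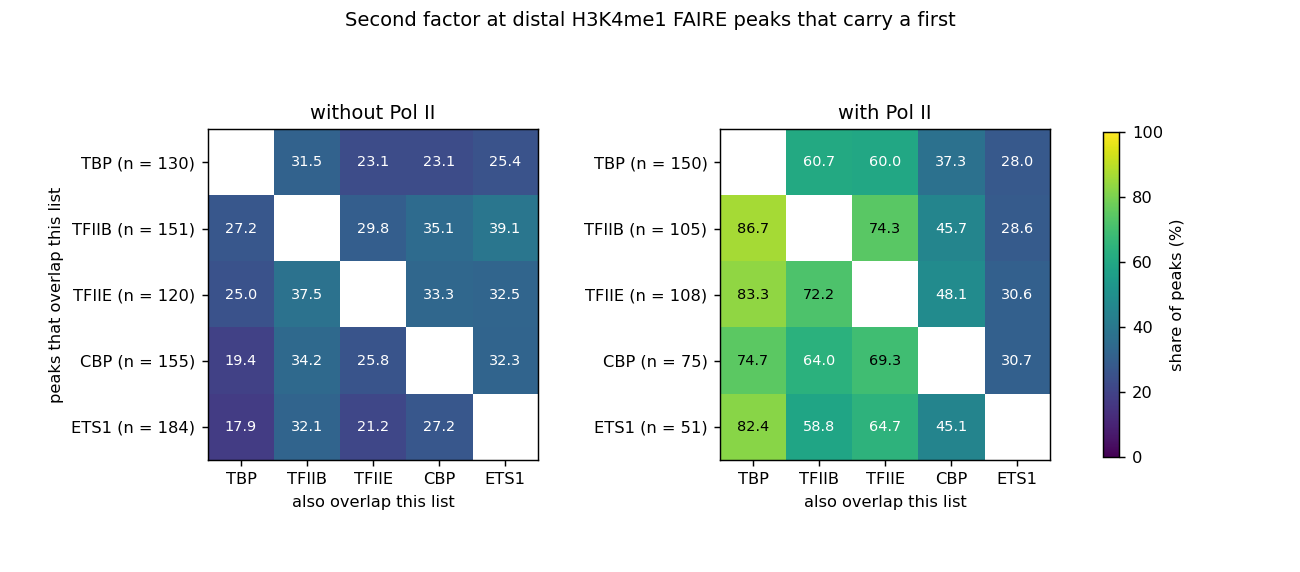
Share, in percent, of the regions overlapping the list named on the vertical axis that also overlapped the list named on the horizontal axis, for regions without Pol II on the left and with Pol II on the right. The TBP column runs between 17.9% and 27.2% without Pol II and between 74.7% and 86.7% with it, and the ETS1 column between 25.4% and 39.1% without Pol II and between 28.0% and 30.7% with it.

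TBP and TFIIB peaks at members also ranked lower in their lists than those at regions with Pol II. An area here is the authors' value for the signal summed over a peak, and it was ranked only within its own list. The 133 TBP peaks at members had a median area percentile of 41.9 in the TBP list (28.6 to 49.3), against 67.7 (59.3 to 73.0) for those at regions with Pol II, and their median width was 110 bp against 160 bp. TFIIB peaks had a median percentile of 50.7 without Pol II (42.1 to 54.3) and 69.1 with it (62.0 to 75.3). TFIIE peaks had one of 43.5 without Pol II (32.4 to 50.3) and 56.7 with it (47.5 to 67.4), and these intervals overlapped. CBP peaks at members had a median percentile of 81.0 (72.4 to 85.5), against 69.8 (62.3 to 83.9) with Pol II. Those intervals overlapped and the order reversed by -2.67 percentile points where H3K4me3 was only required not to overlap. Of the 157 CBP peaks at members, 54 (34.4%) were in the upper 10% of the CBP list by area, as were 20 of those at regions with Pol II (26.3%). A wider CBP peak has more room to overlap a FAIRE peak, and area is summed over width. CBP peaks at members had a median width of 130 bp, against 80.0 bp over the CBP list, and those with Pol II were also wider than the list. CBP ranks at all FAIRE peaks were not computed, so whether these ranks are unusual for open sites was not tested. ETS1 peaks had a median percentile of 53.9 without Pol II and 54.3 with it. The median distance between the midpoints of a factor peak and its FAIRE peak at members was 30.0 bp for TBP and CBP and 25.0 bp for ETS1. With Pol II it was 30.0 bp for TBP and CBP and 35.0 bp for ETS1. Only overlapping peaks were measured, which by itself keeps these distances short.

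Open sites without Pol II were narrower and had a smaller FAIRE area, which is signal summed over the width. Their median width was 90.0 bp (80.0 to 90.0), against 120 bp (100 to 130) with Pol II, a ratio of 0.750. Their median FAIRE area was 474.2 (450 to 499.6), against 680.4 (547.2 to 795.2) with Pol II, a ratio of 0.697, in the authors' signal units. Area divided by width differed less, with medians of 5.42 (5.38 to 5.45) without Pol II and 5.72 (5.62 to 5.92) with it, a ratio of 0.947. Widths among the members ran between 30.0 and 330 bp, and the middle of the distribution between 60.0 and 130 bp (quartiles), so the sets overlapped widely. FAIRE peaks in H3K4me3 had a median width of 130 bp and a median area of 757.6. Among FAIRE peaks in the upper 50% by area the ratios were 0.933 for width and 0.883 for area, and neither was called.

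**Figure D3:**
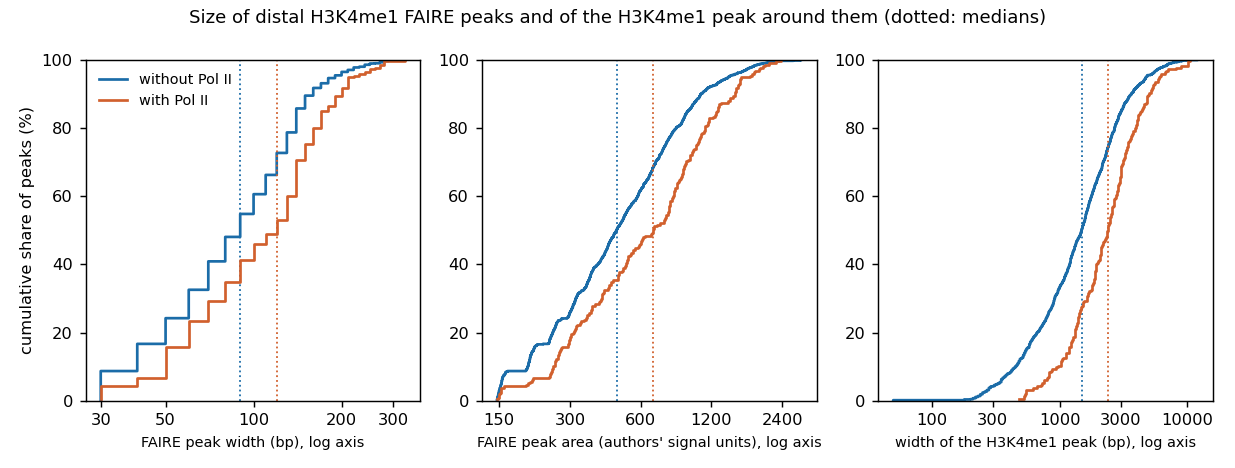
Cumulative share of distal H3K4me1 FAIRE peaks, in percent, by FAIRE width in bp, by FAIRE area in the authors' signal units and by the width in bp of the H3K4me1 peak around them, all on log axes, with dotted lines at the medians. At the quartiles and medians of each panel the curve of regions without Pol II lies to the left. Its medians are 90.0 bp, 474.2 and 1490 bp, against 120 bp, 680.4 and 2380 bp with Pol II. The largest FAIRE areas are 2897 without Pol II and 2366 with it, so the area curves cross at the upper end.

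Members of larger FAIRE area, a value that was no part of the rule, carried factors more often. Area is summed over width, and a wider peak has more room to overlap a factor peak. By width quintile CBP rose likewise, with 4.79% of members in the lowest and 33.5% in the highest. In the lowest quintile of area (295 members) CBP was present at 4.41% (2.59 to 7.39) and in the highest (247 members) at 31.2% (25.7 to 37.2). ETS1 was present at 7.46% in the lowest and 27.1% in the highest, TFIIB at 4.75% in the lowest and 23.9% in the highest, TFIIE at 4.07% and 17.4%, and TBP at 5.42% and 16.2%. Regions with none of the 9 factors made up 79.3% of the lowest quintile and 40.1% of the highest. The rise was not particular to members. At regions with Pol II, CBP was present at 20.0% in the lowest quintile and 51.4% in the highest, TBP at 52.0% and 84.7%, and ETS1 at 12.0% and 36.1%. TFIIB there was present at 28.0% and 61.1%, and TFIIE at 40.0% and 69.4%. TBP at members of the highest quintile was still below TBP at regions with Pol II of the lowest, 16.2% against 52.0%. Standardised to area quintiles, the differences between sets kept their direction and call for TBP, TFIIB, TFIIE, CBP and ETS1. Standardised to FAIRE width quintiles, the ETS1 difference was smaller, at -6.65 points (-13.3 to -2.17).

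**Figure D4:**
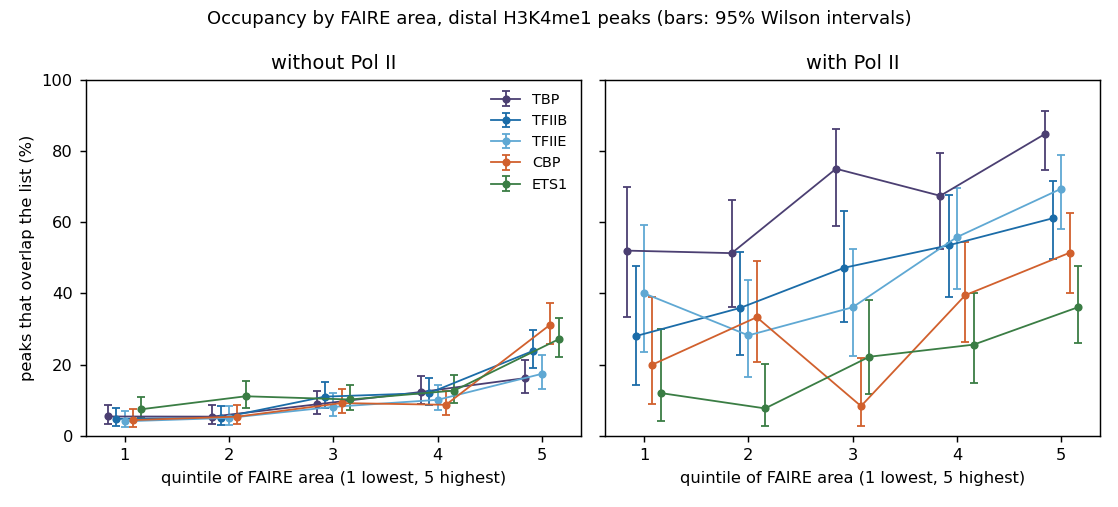
Share of distal H3K4me1 FAIRE peaks, in percent, that overlapped TBP, TFIIB, TFIIE, CBP or ETS1, by quintile of FAIRE area (1 lowest, 5 highest), without Pol II on the left and with Pol II on the right, with 95% Wilson intervals as bars. CBP at regions without Pol II stands at 4.41% in the lowest quintile and 31.2% in the highest, and TBP at 5.42% and 16.2%. With Pol II, CBP stands at 20.0% in the lowest quintile and 51.4% in the highest, and TBP at 52.0% and 84.7%.

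The H3K4me1 domains around the members were shorter. The H3K4me1 peak that held them had a median width of 1490 bp (1390 to 1570), against 2380 bp (2100 to 2640) for regions with Pol II, a ratio of 0.626, and 640 bp over all 74607 H3K4me1 peaks. The comparison with all H3K4me1 peaks is a description only, since a longer peak has more room to overlap a FAIRE peak. The FAIRE peak was wholly covered by H3K4me1 at 1061 members (76.9%) and at 170 regions with Pol II (79.1%). Its midpoint lay a median of 407 bp from the nearer edge of the H3K4me1 peak without Pol II and 729.5 bp with it, or 27.4% of the peak's width without Pol II and 31.2% with it. The members were spread over 1311 H3K4me1 peaks, of which 65 held more than 1.

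The rule set a distance of over 500 bp from Pol II, and most members lay much farther away. The median distance to the nearest total Pol II or Ser5P peak was 25.2 kb (22.4 to 27.7), with quartiles of 9.04 and 64.4 kb. The nearest H3K4me3 peak was a median of 15.3 kb away (14.1 to 16.7), against 12.0 kb (9.84 to 15.1) for regions with Pol II, and these intervals overlapped. TBP occupancy of members was 3.92% in the 51 that lay within 2000 bp of Pol II (1.08 to 13.2), 10.6% between 2000 and 10000 bp, 9.15% between 10000 and 50000 bp and 9.56% farther away. Beyond 50000 bp the TBP share differed by -1.03 points (-5.59 to 3.26) from that between 2000 and 10000 bp, which was not called. ETS1 was present at 5.88%, 10.3%, 12.8% and 17.2% in the same order of distance. The ETS1 share beyond 50000 bp (429 members) was higher than that between 2000 and 10000 bp by 6.97 points (1.94 to 11.8) and than that between 10000 and 50000 bp by 4.47 points (0.0457 to 9.06). These differences were computed after the shares had been seen, and those of TFIIB, TFIIE and CBP were not called.

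A difference in clustering between the 2 sets was not detected. Another FAIRE peak of any kind lay within 5 kb of 322 members (23.3%) and of 55 regions with Pol II (25.6%). The difference was -2.25 points (-8.84 to 3.59) and was not called. Within 1 kb the share was 10.8% without Pol II and 11.2% with it, and within 10 kb it was 34.8% without and 39.5% with it. FAIRE peaks in H3K4me3 had such a neighbour within 5 kb more often, at 32.8%, and so did those outside both marks, at 35.7%. When H3K4me3 was only required not to overlap, the shares were 25.0% without Pol II and 36.0% with it, a difference of -11.0 points (-16.2 to -5.99) that was called.

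**Figure D5:**
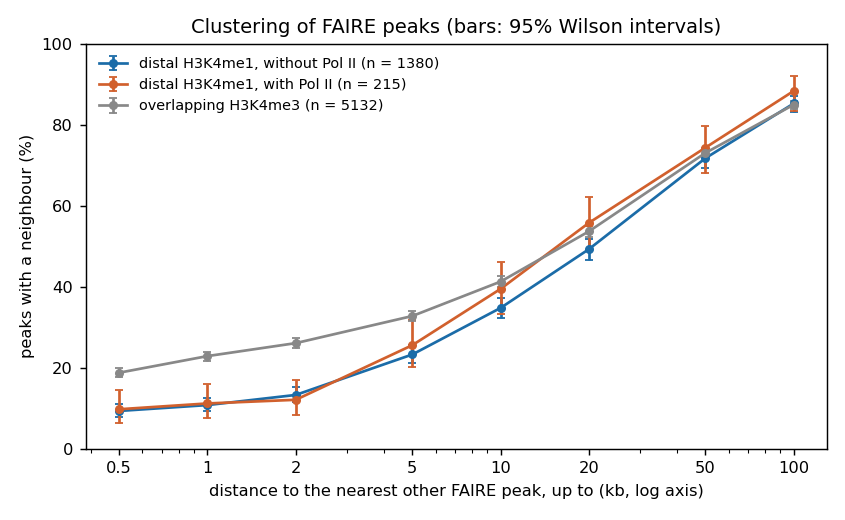
Share of FAIRE peaks, in percent, with another FAIRE peak up to the distance on the horizontal axis (kb, log axis), for distal H3K4me1 peaks without Pol II, the same with Pol II, and peaks overlapping H3K4me3, with 95% Wilson intervals as bars. At 5 kb the shares are 23.3% without Pol II, 25.6% with it and 32.8% for the H3K4me3 sites, and the intervals of the 2 distal sets overlap.

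The FAIRE neighbours of members within 5 kb were mostly other members, which the rule itself favours. Of the 322 with a FAIRE neighbour within 5 kb, the nearest was another member for 196 (60.9%), a region with Pol II for 11 (3.42%) and an H3K4me3 site for 55 (17.1%). Of the 55 regions with Pol II that had such a neighbour, it was one without Pol II for 12 (21.8%) and another with Pol II for 23 (41.8%). Peaks this close lie at similar distances from Pol II and H3K4me3, so the rule partly fixes these shares. For 129 members the neighbour lay within 0.5 kb, and whether such pairs are parts of 1 open site was not tested. Since members also outnumber regions with Pol II among all FAIRE peaks, these shares were not compared further. Joined where gaps were at most 10 kb, the members formed 1253 runs, of which 1137 held a single member and 116 held 2 or more. The 243 members in runs carried ETS1 at 20.6% against 11.8% of single members, a difference of 8.79 points (3.77 to 14.6), and CBP at 16.9% against 10.0%, a difference of 6.85 points (2.26 to 12.3). TBP reached 12.8% in runs and 8.71% outside, with an interval of the difference of 0.0136 to 9.06 points. TFIIB, at 4.20 points (-0.100 to 9.43), and TFIIE, at 2.93 points (-0.852 to 7.73), were not called. Members of a run can share a factor peak, so these counts are less independent than single sites.

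Of the runs outside chromosome 18, where no region is named here, the 2 with most members held 4 each, and the one of larger summed FAIRE area lay on chromosome 16 (chr16:96088751-96092340, mm9). Its members spanned 3.59 kb, and all 4 overlapped CBP and TFIIB, 3 overlapped TFIIE, 3 ETS1 and 1 TBP, while no Pol II, Ser5P or H3K4me3 peak lay in the span. One of the 2 members that overlapped 6 of the 9 lists was in it. This was chr16:96092021-96092160, 140 bp wide, which overlapped TFIIA, TFIIB, TFIIE, TFIIF, CBP and ETS1 but not TBP, in an H3K4me1 peak of 3200 bp, 29.8 kb from the nearest Pol II peak. One CBP peak, ranked 4 of 6372 by area, overlapped both it and the adjacent member chr16:96092171-96092340. A further member of the run, chr16:96091161-96091410, carried TBP, TFIIB, TFIIE, CBP and ETS1, with a CBP peak of rank 35 and a TBP peak at percentile 62.5. The other run of 4 members, on chromosome 2 (chr2:127140321-127154410), was sparser. It covered 14.1 kb, 2 of its members had none of the 9 factors, and 1 Ser5P peak lay in its span. A run of 3 members on chromosome 11 (chr11:115502501-115504920) covered 2.42 kb with 1 H3K4me1 peak in its span, and 2 of its members overlapped CBP and 1 TFIIB, with no TBP peak.

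Members of high FAIRE area outside chromosome 18 ranged from several factors to none. The highest, chr7:56192981-56193310, was 330 bp wide with an area of 2897 and overlapped CBP and ETS1. The next, chr4:40822951-40823240, had an area of 2873 and overlapped TFIIB, TFIIE and a CBP peak of rank 18. By contrast, chr6:33990841-33991150, 310 bp wide with an area of 2680, overlapped none of the 9 lists and lay 11.4 kb from Pol II. The region chr10:60695991-60696270 overlapped a CBP peak of rank 38, ETS1 and a TBP peak at percentile 3.08, so its factors differed widely in rank within their lists. Its neighbour at 0.920 kb, chr10:60697191-60697310, carried CBP alone, with a peak of rank 8. The members chr17:44791541-44791760 and chr2:9517031-9517220 each carried TBP, TFIIB, TFIIE, CBP and ETS1. The nearest Pol II peak was 465 kb from the first and 275.8 kb from the second. Their TBP peaks were near the bottom of the TBP list, at percentile 4.61 for the first and 0.869 for the second.

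The TBP and ETS1 peaks of highest area at members were partly alone, again leaving out chromosome 18. The TBP peak of highest area, rank 413 of 15651, lay at chr13:22029051-22029130, a FAIRE peak of 80 bp that overlapped no other of the 9 lists. This region lay 37.0 kb from Pol II and 3.07 kb from H3K4me3. The following TBP peaks were not alone. That of rank 678 lay at chr9:107955271-107955490 with TFIIB and TFIIH, and that of rank 688 at chr8:126841841-126841920 with TFIIB, CBP and ETS1. The ETS1 peak of highest area, rank 53 of 2359, lay at chr2:13335221-13335390 with TFIIB, TFIIE, TFIIF and CBP, in an H3K4me1 peak of 7180 bp, 130.8 kb from Pol II. The next ETS1 peaks, of ranks 56 and 68, lay at chr2:24603491-24603650 and chr19:26720721-26720870, and both members carried ETS1 alone. Among regions with Pol II outside chromosome 18, the one of highest FAIRE area, chr8:129371561-129371890, had an area of 2366 and overlapped TBP, TFIIB, TFIIE and CBP, and the next, chr13:46435361-46435640, overlapped these with TFIIH and ETS1.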

How the data were processed

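Peak lists for 16 targets were used, 1 per target, from 20 samples. Per the names of the deposited files, the authors gave each peak an area, which is the signal summed over it, replicates were merged for 13 lists, and CBP, Taf1 and TFIIB came from 1 replicate each. Per the submitters' processing notes the build was mm9. Aligner, peak caller, threshold and read depth are, in the sources used here, not given, so areas were only ranked or compared within a list. With 1 deposited list per target, no p-value over samples can be formed.

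Overlap meant 1 bp or more, and distances are gaps between peak ends, which fell on 10 bp bins. Shares were compared by Newcombe 95% intervals and medians by order-statistic intervals. The members, lists and comparisons were chosen with earlier results of these data known. Regions were named by rule: the highest by FAIRE, TBP, CBP or ETS1 area, those with the most lists, the runs of most members, and those nearest each threshold. Regions on chromosome 18 were left out of this naming, whether or not they would have qualified, and kept in every count and test. Alternatives changed distances, thresholds, list lengths and standardisation, and those added after seeing the data are named as such. No mm9 genome or annotation was used here, so no gene or sequence is given. Overlap and interval code was tested on simulated data. The work was done in Python (version 3.11.15) with pandas (version 2.3.3), numpy (version 2.4.6), scipy (version 1.17.1) and matplotlib (version 3.10.9).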

Additional observations from a re-analysis of the deposited data

How the results depend on the processing

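Of 300 alternatives to 22 results, 280 kept direction and call, 9 lost the call, 7 gained one and 4 reversed. The differences in TBP, TFIIB, TFIIE, TFIIA, TFIIH, CBP and ETS1 kept both under every alternative run, with ranges of -66.7 to -3.50 points for TBP, -28.4 to -10.7 for CBP and -12.3 to -6.56 for ETS1. The H3K36me3 difference became called at -1.53 points (upper 50% of factor lists), -1.74 (Pol II within 1000 bp), -1.87 (Ser2P counted as Pol II), -2.09 (FAIRE peak wholly in H3K4me1), -1.61 (standardised to FAIRE area) and -1.69 (standardised to FAIRE width). Calls were lost for Taf1 at -0.857 (Pol II overlap only) and -1.59, TFIIF at -0.679 and Ser2P at -1.39 (upper 50% of FAIRE peaks), and TFIIF at -1.41 and Ser2P at -0.588 (wholly in H3K4me1). Among the upper 50% of FAIRE peaks the ratios of 0.933 for width and 0.883 for area were not called. With equal list lengths, by construction with few peaks left, TBP given CBP was 1.05 and TFIIB given TBP -0.145. The difference in neighbours within 5 kb was 3.61 (Pol II overlap only), -11.0 (H3K4me3 overlap only) and, standardised to H3K4me1 width in an alternative added after seeing the data, 1.22. The CBP percentile difference was -2.67 (H3K4me3 overlap only). Apart from the equal list lengths, the cause of these changes was not tested. Without the lists of 1 replicate (CBP, Taf1 and TFIIB), also added later, the remaining general factors reached 10.1% without Pol II and 52.1% with it. Ser2P occupancy could not be given where Ser2P counted as Pol II. No paired analysis was possible because each target has a single list and no result compares samples. Depth was unknown, so regions below the authors' thresholds cannot be told from unbound ones.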

Other observations

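The members made up 8.96% to 19.0% of the FAIRE peaks of an autosome, with a median of 12.8%, against 4 of 183 FAIRE peaks on the X chromosome and 0 of 144 on the Y.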
